A study of Mus musculus with 7 samples.

Results

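The genes described here are 10 genes of the urea cycle and of the reactions that feed nitrogen into it: Cps1, Otc, Ass1, Asl, Arg1, Nags, Slc25a15, Gls2, Glud1 and Got2. They were taken by symbol from a table of 22481 gene symbols, using for a symbol on several lines the line with the highest mean, and all 10 were found and passed the filter on low values. The table comes from livers of C57bl/6 mice in a series that its title places in hepatic fibrosis, and the treatment label is either phosphate-buffered saline (PBS, 3 libraries) or parathyroid hormone (PTH, 4 libraries), and its values are FPKM, fragment counts scaled by transcript length and by library size. PTH is a peptide hormone whose receptor, Pth1r, raises cyclic AMP. Sample titles carry a C for PBS and C+P for PTH, and the C is not explained, so a treatment that both groups share cannot be told from the labels. Dose, duration, age and sex are not given there. Libraries are named by group and replicate number, such as PTH 2. Nothing in the labels says that the libraries come from different mice, and the p-values therefore reflect library-to-library spread, which may be technical.

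The urea cycle turns ammonia, which is toxic, into urea for excretion, and in the mouse its full set of enzymes is found mainly in hepatocytes of the periportal zone of the liver. Its first steps lie in mitochondria: NAGS makes N-acetylglutamate, the activator that CPS1 needs to form carbamoyl phosphate, and OTC joins this to ornithine to make citrulline. Citrulline leaves in exchange for ornithine through the carrier encoded by Slc25a15, and in the cytosol ASS1 condenses it with aspartate, ASL splits the product into arginine and fumarate, and ARG1 cleaves arginine into urea and ornithine. GLS2, the liver-type glutaminase, and GLUD1, glutamate dehydrogenase, release ammonia, and GOT2 is the mitochondrial aminotransferase that makes aspartate. Ammonia that escapes this route is captured near the central vein by glutamine synthetase, encoded by Glul.

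All 20 hepatocyte markers were above the filter. As a background to the counts below, 22.8% of all tested genes rose and 2.37% fell as deposited. At a common median 2.97% rose and 4.77% fell. The summed level of the hepatocyte markers ran from 32834 to 58895 FPKM in PBS and from 28716 to 51007 FPKM in PTH. Of them 0 rose and 6 fell by limma (1 and 7 at an unadjusted p under 0.05). Those that fell were Tat, Hpd, Ambp and the fibrinogen genes Fga, Fgb and Fgg. Estimated reads per library ran from 1200426 to 3280497. For other cell types and for handling, marker levels were as follows. Summed levels of 15 tissue handling stress genes were 485 to 1423 FPKM in PBS and 162 to 231 FPKM in PTH, and 7 of 15 fell. Of 15 neutrophil markers, 10 were tested and 6 fell, with sums of 1199 to 2761 FPKM in PBS and 114 to 769 FPKM in PTH, and Ly6g was listed at 0 in all libraries. Among 13 tested markers of Kupffer cells and other macrophages, 1 rose and 8 fell, with sums of 261 to 367 FPKM in PBS and 156 to 252 FPKM in PTH. Of 14 liver endothelial markers 3 rose, a share near the 22.8% of all tested genes that rose, and 0 did so at a common median; their sums were 102 to 133 FPKM in PBS and 142 to 178 FPKM in PTH. Of 14 hepatic stellate cell markers 3 rose (Lrat, Hgf and Tagln), also a share near 22.8%. Tagln also rose at a common median while Colec11 fell there. The stellate sums overlapped, from 127 to 148 FPKM in PBS and from 120.4 to 213 FPKM in PTH. Sums also overlapped for erythroid markers, of which 2 of 6 tested rose as deposited and 0 at a common median, and for cholangiocyte markers, of which 1 of 9 rose as deposited and 1 fell at a common median. With 1 library left out, falls numbered 3 to 7 for hepatocyte markers (3 without PBS 1 or PTH 2), 6 to 7 for handling genes, 3 to 5 for neutrophil markers (3 without PBS 1 or PBS 3) and 5 to 9 for macrophage markers (5 without PBS 1, PBS 3, PTH 2 or PTH 3). Endothelial rises numbered 0 to 3, with 3 only without PTH 4, stellate rises 2 to 4, with 4 without PTH 1 and 2 without any other library, erythroid rises 0 to 2 (0 without PBS 2, PBS 3 or PTH 2) and cholangiocyte rises 0 to 1 (1 without PTH 1 or PTH 3). The part of these differences in the results below was not tested, and in bulk tissue fewer cells of a type and less RNA per cell cannot be told apart.

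Ass1 and Asl, which encode the first and second cytosolic enzymes of the cycle, fell in PTH livers. By limma with Benjamini-Hochberg adjustment over all 11839 genes tested, 2 of the 10 genes fell, against a background of 2.37% of all tested genes that were lower, and 0 rose, against a background of 22.8% that were higher. In either direction 25.2% of tested genes were called. At an unadjusted p under 0.05 the counts were 2 lower and 1 higher, the latter being Glud1. The median log2 change of the 10 genes was -0.31, while the median over all tested genes was 0.55. Most tested genes were higher in PTH (21.8% had a change below 0), although total FPKM overlapped, from 265813 to 345186 in PBS and from 265551 to 362696 in PTH. Each change of the 10 genes is therefore also given after scaling the libraries to a common median of the tested genes. At that scaling 4.77% of tested genes were lower and 2.97% were higher (7.75% in all). On that scale the same 2 genes fell and 0 rose, and the median log2 change of the 10 genes was -0.93. This median was -0.61 with quantile scaling and -0.38 with libraries at a common total FPKM.

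Asl, on chromosome 5 from 130011258 to 130029247 (GRCm38, GENCODE M21), encodes argininosuccinate lyase and had 154, 86.8 and 88.1 FPKM in PBS 1 to 3 and 50.4, 18.1, 35.5 and 21.3 FPKM in PTH 1 to 4. All 4 PTH libraries lay below all 3 PBS libraries. The mean fell by 71.5%, from 109.8 ± 38.7 (SD, n = 3) to 31.3 ± 14.8 FPKM (SD, n = 4), and the log2 change on the log2(FPKM + 0.5) scale was -1.86 (SE 0.38, limma adjusted p = 0.00879). Only 0.921% of tested genes had a lower change. Asl passed the threshold in all 26 alternative fits, with changes between -2.12 and -1.58 when any 1 library was left out, and its change at a common median was -2.48 (limma adjusted p = 0.00574).

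Ass1, on chromosome 2 from 31470207 to 31520672, encodes argininosuccinate synthase, the step just before Asl, and had 579, 288 and 269 FPKM in PBS 1 to 3 and 246, 155, 184 and 136 FPKM in PTH 1 to 4. The groups did not overlap, but PBS 3 and PTH 1 were close, and PBS 1 lay far above the other PBS libraries. The mean fell by 52.5%, from 379 ± 174 (SD, n = 3) to 180.1 ± 47.9 FPKM (SD, n = 4), and the log2 change was -1.02 (SE 0.33, limma adjusted p = 0.0457). This call was near the threshold: it held with PTH 1 left out and was lost with any of the other 6 libraries left out, with changes from -1.22 to -0.66 and limma adjusted p up to 0.147, the highest being without PBS 1. With libraries at a common median the change was -1.64 (limma adjusted p = 0.0103), and it then passed with each of the 7 libraries left out in turn.

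**Figure D1:**
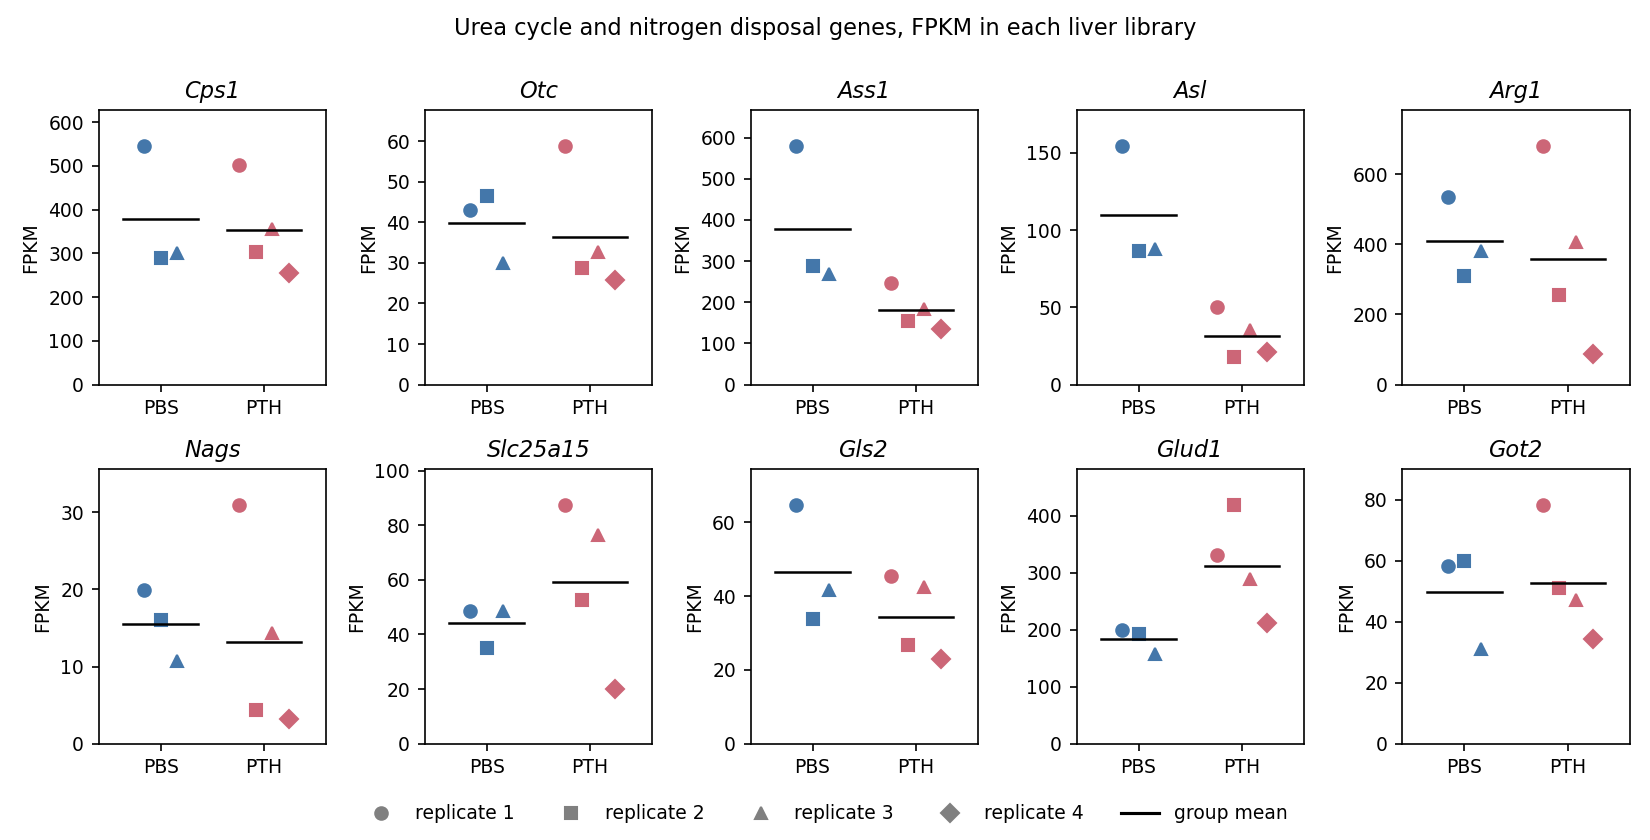
FPKM (linear axis from 0) of each of the 10 genes in the 3 PBS and 4 PTH libraries, with circles, squares, triangles and diamonds for replicates 1 to 4 and the group mean as a line. Ass1 and Asl are lower in every PTH library than in every PBS library, Glud1 is higher in every PTH library, and the other 7 genes overlap.

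Arg1, the last enzyme of the cycle, on chromosome 10 from 24915221 to 24927484, did not pass the test. Its level was 535, 309 and 381 FPKM in PBS 1 to 3 and 680.0, 255, 407 and 87.3 FPKM in PTH 1 to 4. The PTH libraries held both the highest and the lowest level of all 7, so the groups overlapped widely. The log2 change was -0.50 (SE 0.56 and limma adjusted p = 0.516), and its 95% interval ran from -1.73 to 0.72. It was -1.13 at a common median (95% interval -2.33 to 0.07, limma adjusted p = 0.215).

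Cps1 and Otc, of the mitochondrial steps, did not pass the test on either scale, but their changes depended on the scaling. Cps1, on chromosome 1 from 67123026 to 67231259, encodes the entry and rate-controlling enzyme and had 545, 289 and 300.2 FPKM in PBS 1 to 3 and 501, 303, 355 and 254 FPKM in PTH 1 to 4. The highest libraries of the groups, PBS 1 and PTH 1, were alike, and the change on the log2 scale was -0.08 (SE 0.33, limma adjusted p = 0.869), its 95% interval running from -0.80 to 0.64. Scaling to a common median gave -0.71, with a 95% interval from -1.31 to -0.11 and a limma adjusted p of 0.13. Otc, on chromosome X from 10252305 to 10321024, had 43.1, 46.4 and 30.1 FPKM in PBS 1 to 3 and 58.8, 28.7, 32.6 and 25.8 FPKM in PTH 1 to 4. The Otc groups overlapped, with a log2 change of -0.18 (SE 0.32, limma adjusted p = 0.696) and a 95% interval from -0.88 to 0.53. On the common-median scale the change was -0.80, with a 95% interval from -1.43 to -0.16 and a limma adjusted p of 0.111. Both passed at a common median without PTH 1, with a limma adjusted p of 0.0497 for Cps1 and 0.0181 for Otc.

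Nags, on chromosome 11 from 102145513 to 102149477, supplies the activator of CPS1 and was the lowest of the 10 genes in both groups. It had 19.9, 16.0 and 10.8 FPKM in PBS 1 to 3 and 30.9, 4.33, 14.3 and 3.21 FPKM in PTH 1 to 4, the last resting on about 18 reads. PTH 1 was above every PBS library, PTH 2 and PTH 4 were below every PBS library, and PTH 3 lay among them. The log2 change was -0.71 (SE 0.62, limma adjusted p = 0.41), and at a common median it was -1.30 (limma adjusted p = 0.22), which passed there without PTH 1 (limma adjusted p = 0.0336). Nags overlaps an antisense gene, Gm11586, in M21, and the sources used here do not say whether counting used strand. Slc25a15, the ornithine and citrulline carrier, on chromosome 8 from 22375551 to 22398597, had 48.7, 35.2 and 48.6 FPKM in PBS 1 to 3 and 87.4, 52.5, 76.4 and 20.1 FPKM in PTH 1 to 4. Of the PTH libraries 3 lay above every PBS library and PTH 4 lay below them all. As deposited the log2 change of Slc25a15 was 0.24 (SE 0.44, limma adjusted p = 0.701), and at a common median it was -0.38, so that its sign depended on the scaling.

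Among the genes that feed the cycle, Glud1 was the one whose PTH libraries all lay above the PBS libraries, as deposited but not at a common median. Glud1, on chromosome 14 from 34310727 to 34345265, had 200.2, 193 and 158 FPKM in PBS 1 to 3 and 332, 419, 288 and 211 FPKM in PTH 1 to 4. All PTH libraries exceeded all PBS libraries, although PTH 4 was within a small distance of PBS 1. As deposited, 32.9% of all tested genes were higher in this way, so the separation did not set Glud1 apart from them. Its change also lay near the median of 0.55 over all tested genes, with 61.9% of them having a lower change. The log2 change was 0.73 (SE 0.29, limma adjusted p = 0.0809), which missed the threshold, and at a common median it was 0.10 (limma adjusted p = 0.801). Without PTH 4 the change was 0.90 and passed, with a limma adjusted p of 0.0441.

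Gls2, on chromosome 10 from 128194457 to 128210004, had 64.6, 33.7 and 41.6 FPKM in PBS 1 to 3 and 45.5, 26.7, 42.5 and 22.9 FPKM in PTH 1 to 4. The groups overlapped as deposited, with a log2 change of -0.44 (SE 0.33, limma adjusted p = 0.331), and did not overlap at a common median, where the change was -1.06 (limma adjusted p = 0.0539, or 0.0289 there without PTH 1). The table gives Gls2 the same locus as Spryd4, a gene on the opposite strand that overlaps it, so reads could be split between them. Got2, on chromosome 8 from 95864134 to 95888547, had 58.2, 59.9 and 31.1 FPKM in PBS 1 to 3 and 78.1, 51.1, 47.2 and 34.2 FPKM in PTH 1 to 4. Its groups overlapped, and the change on the log2 scale was 0.08 (SE 0.34, limma adjusted p = 0.874) as deposited and -0.54 at a common median.

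Over the 10 genes, 2 had groups that did not overlap with PTH lower (background 3.20% of tested genes) and 1 with PTH higher (background 32.9%, or 36.1% in either direction). At a common median 3 did not overlap with PTH lower (background 12.1%) and 0 with PTH higher (background 11.6%, or 23.7% in either direction). By an exact permutation test (two-sided), Ass1, Asl and Glud1 each had p = 0.0571, which is the smallest that the 35 splits of 3 against 4 libraries can give, so this test cannot reach 0.05 here.

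**Figure D2:**
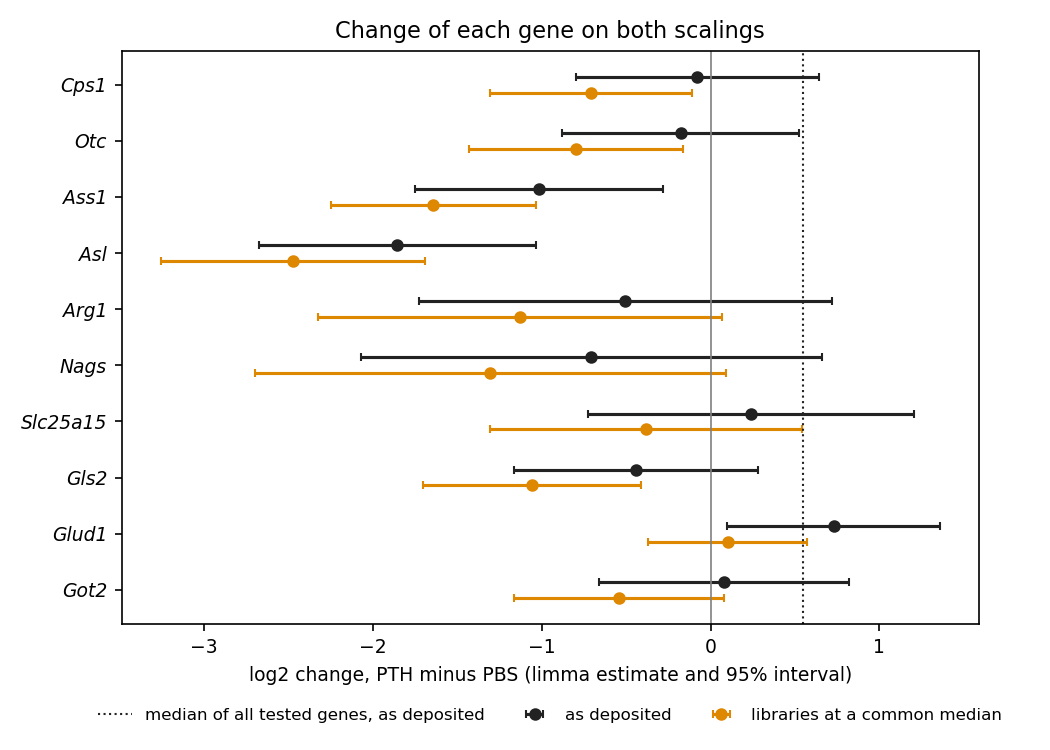
Log2 change of each gene, PTH minus PBS, with its 95% interval from limma, as deposited (black) and after scaling libraries to a common median (orange). The dotted line is the median change of all tested genes as deposited, 0.55, and the intervals of Ass1 and Asl lie below 0 on both scales.

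FPKM is a level per length, so the levels of different genes can be ordered. In PBS the mean level was highest for Arg1 (408 FPKM), Ass1 (379 FPKM) and Cps1 (378 FPKM), which did not differ beyond their spread, followed by Glud1 (184 FPKM) and Asl (109.8 FPKM). Got2, Gls2, Slc25a15 and Otc lay between 39.9 and 49.7 FPKM with overlapping libraries, and Nags came last with 15.6 FPKM. In PTH, Arg1 (357 FPKM), Cps1 (353 FPKM) and Glud1 (313 FPKM) led with overlapping libraries, Ass1 stood at 180.1 FPKM, and Asl, with 31.3 FPKM, lay among the lower genes Slc25a15, Got2, Otc and Gls2, above Nags with 13.2 FPKM.

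For several genes the range over the 4 PTH libraries was wider than that over the 3 PBS libraries, a difference that was not tested. The highest PTH library exceeded the lowest 9.63-fold for Nags, 7.79-fold for Arg1 and 4.34-fold for Slc25a15, against 1.85-fold, 1.73-fold and 1.38-fold in PBS. Of 3955 genes with a mean of at least 10 FPKM, 1.24% had a wider range than Nags over the PTH libraries and 1.82% a wider range than Arg1, and the median ranges of these genes were 1.84-fold in PTH and 1.61-fold in PBS. PTH 1 was the highest PTH library for 9 of the 10 genes and PTH 4 the lowest for 9 of 10, while over the 3955 genes PTH 1 was highest for 39.3% and PTH 4 lowest for 52.3%. The exceptions were Glud1, highest in PTH 2, and Asl, lowest in PTH 2. In PBS, replicate 1 was highest for 8 of the 10 genes, against 54.5% of the 3955 genes.

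**Figure D3:**
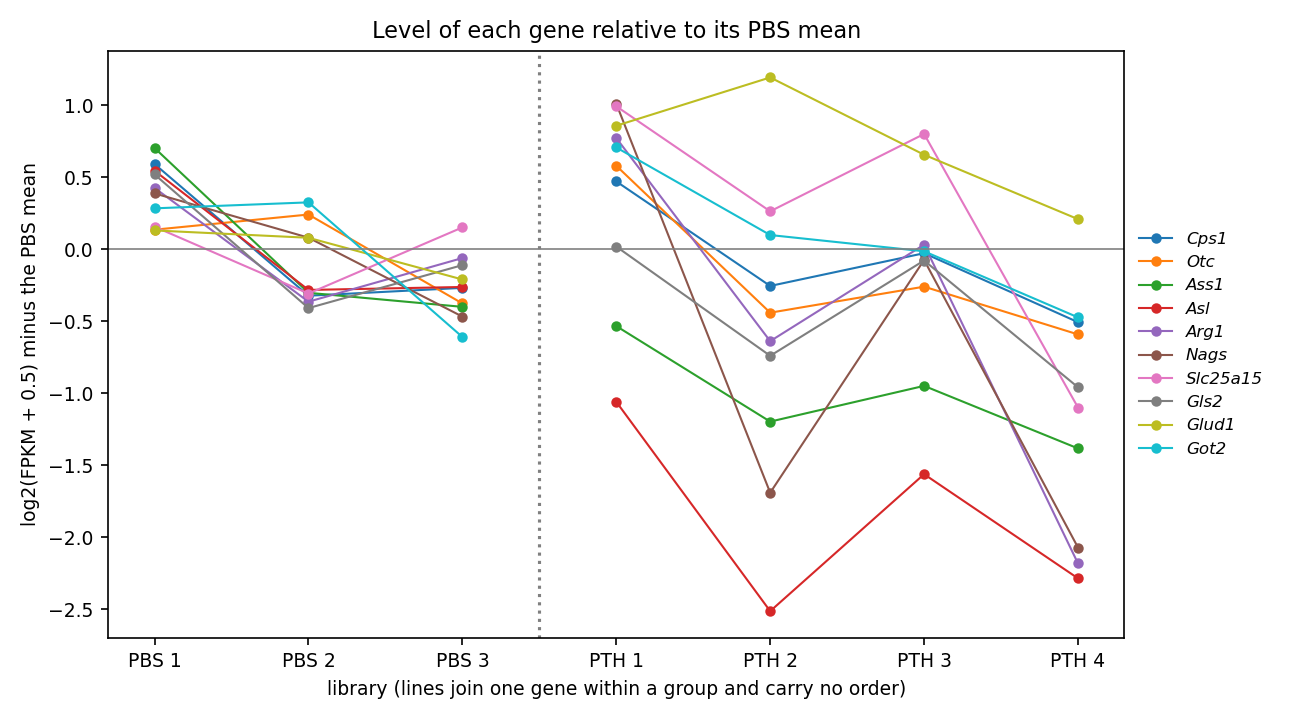
Level of each gene in each library on the log2(FPKM + 0.5) scale, minus the gene's PBS mean. Asl and Ass1 lie below 0 in all 4 PTH libraries, Glud1 lies above 0 in all 4, and Nags and Arg1 span the widest range over the PTH libraries.

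Glud1 also stood apart in its pattern over the 7 libraries: its Pearson correlation with the mean standardised log2 profile of the other 9 genes was -0.01, whereas for the remaining genes this value ran from 0.55 for Asl to 0.93 for Arg1. These correlations describe 7 libraries that differ in depth and scaling and carry no test. By the same measure, among 11339 other tested genes the closest to the mean profile of all 10 were B3gnt1 (r = 0.99), Hist1h3a (r = 0.99), Mcee (r = 0.99), Foxp2 (r = 0.98) and Bcat2 (r = 0.98). Mcee encodes methylmalonyl-CoA epimerase and Bcat2 the mitochondrial branched-chain aminotransferase. Mcee had 15.9, 9.90 and 9.09 FPKM in PBS 1 to 3 and 15.7, 8.43, 10.5 and 4.15 FPKM in PTH 1 to 4. Its high library in each group was that of most of the 10 genes, which follows from its selection by profile. Mcee did not pass the test (limma adjusted p = 0.536).

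Apart from the effect of the 0.5 FPKM added to each level, ratios within a library do not depend on how libraries were scaled. In all, 14 such log2 ratios were compared. The added value matters most for low genes: the difference for Nags, given below, was -1.26 with 0.1 FPKM added and -1.13 with 1 FPKM added. The reference was the mean log2 level of 21 enzymes listed for the tricarboxylic acid (TCA) cycle, mitochondrial but for the cytosolic forms encoded by Aco1, Idh1 and Mdh1. Relative to it, 5 of the 10 genes were lower in every PTH library than in every PBS library (Cps1, Otc, Ass1, Asl and Gls2), against a background of 11.5% of tested genes. In the other direction 0 were higher, against 7.69%. The log2 ratio of Cps1 to these enzymes was 4.29, 3.48 and 3.96 over the PBS libraries and 3.43, 3.17, 3.40 and 3.36 over the PTH libraries, a difference in means of -0.57. The difference was -0.67 for Otc, -1.51 for Ass1, -2.35 for Asl and -0.93 for Gls2. For each of these 5 the exact permutation test (two-sided) gave p = 0.0571, the smallest possible, and 0.114 after Benjamini-Hochberg adjustment over the 14 ratios. For Arg1, Nags, Slc25a15, Glud1 and Got2 the groups overlapped, with differences of -0.995, -1.20, -0.25, 0.24 and -0.41. The TCA enzymes themselves were not constant: as deposited their median log2 change was 0.43, beside 0.55 for all tested genes. Of the 21, 4 rose, a share no higher than the 22.8% of all tested genes. On their own, Cps1 and Otc changed by -0.08 and -0.18 as deposited, so their lower ratios do not show that their levels fell. The groups also overlapped in the log2 ratio of Cps1 to Otc, which was 3.19 ± 0.52 in PBS (SD, n = 3) and 3.29 ± 0.15 in PTH (SD, n = 4), and the exact permutation test (two-sided) gave p = 0.743. The log2 ratio of Arg1 to Ass1 overlapped too, from -0.12 to 0.50 in PBS and from -0.64 to 1.47 in PTH.

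**Figure D4:**
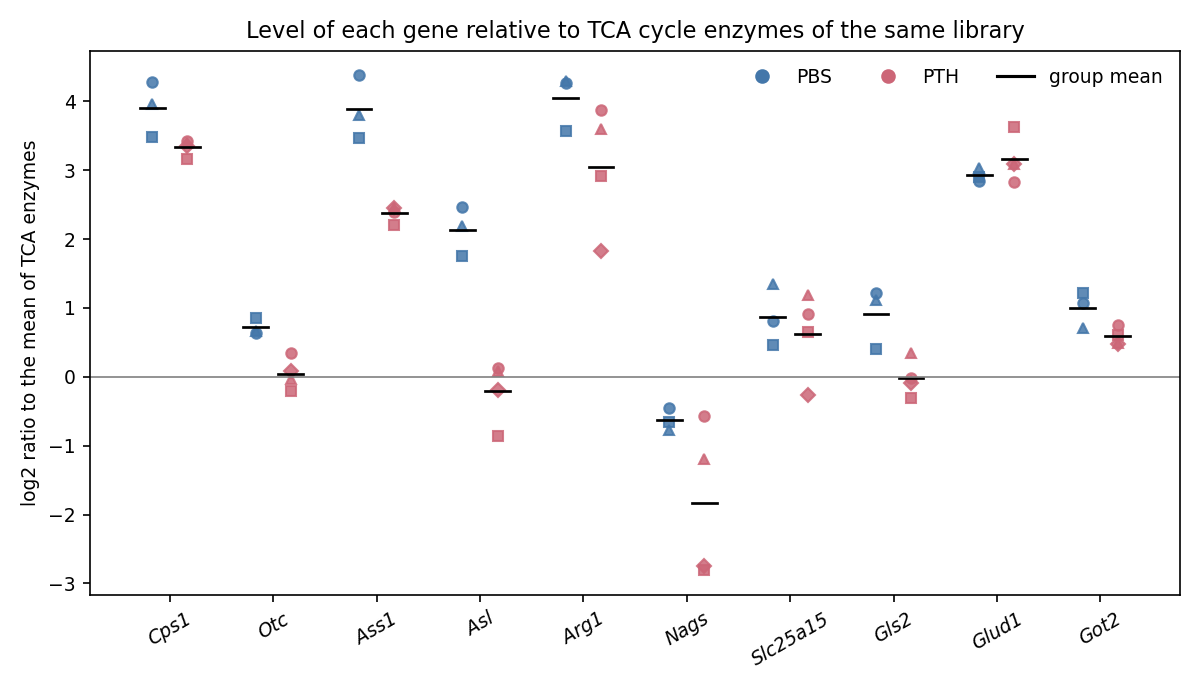
Log2 ratio of each gene to the mean log2 level of 21 TCA cycle enzymes in the same library, by group, with group means as lines and circles, squares, triangles and diamonds for replicates 1 to 4. The groups are separate for Cps1, Otc, Ass1, Asl and Gls2 and overlap for the other 5 genes.

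Glul, the gene of the other route of ammonia removal, fell. It had 45.0, 67.5 and 36.3 FPKM in PBS 1 to 3 and 16.6, 13.6, 18.8 and 9.84 FPKM in PTH 1 to 4, with all PTH libraries below all PBS libraries. Glul changed by -1.71 on the log2 scale (SE 0.31, limma adjusted p = 0.00617), and -2.32 at a common median, and it passed in all 26 alternative fits; its locus in the table is also that of 4 other genes, among them Teddm1. The log2 ratio of Cps1 to Glul was 3.58, 2.09 and 3.03 over the PBS libraries and 4.87, 4.43, 4.20 and 4.62 over the PTH libraries, higher in every PTH library by a mean of 1.63 (exact two-sided permutation p = 0.0571, 0.114 adjusted over the 14 ratios). The log2 ratio of Gls2 to Glul was likewise higher in every PTH library, by 1.27, with the same p values.

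Of 14 tested genes that handle glutamine, glutamate, aspartate and alanine besides the 10, 2 rose and 2 fell, Glul among the latter. The background was 22.8% higher and 2.37% lower. Aspg, which encodes an asparaginase, fell from 27.1 ± 5.16 (SD, n = 3) to 10.9 ± 3.51 FPKM (SD, n = 4), a log2 change of -1.32 (SE 0.30), or -1.93 at a common median. Ppat and Cad, whose products use glutamine nitrogen to begin purine and pyrimidine synthesis, rose. Ppat went from 2.58 ± 0.345 to 13.9 ± 4.50 FPKM, a log2 change of 2.18 (SE 0.31), or 1.62 at a common median, and shares its table locus with Paics. Cad went from 3.37 ± 1.97 to 10.95 ± 2.27 FPKM, a log2 change of 1.68 (SE 0.36), and was not past the threshold at a common median (limma adjusted p = 0.0845). With 1 library left out, the same 4 genes passed each time, joined by Asns, lower, without PTH 1.

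Of 16 tested genes that handle arginine, ornithine and proline, 1 rose and 0 fell by limma (3 and 3 at an unadjusted p under 0.05). Over all tested genes 22.8% rose and 2.37% fell. The gene that rose was Odc1, the ornithine decarboxylase that opens polyamine synthesis and draws on the same ornithine as OTC. Odc1 had 10.3, 4.15 and 12.1 FPKM in PBS 1 to 3 and 41.4, 85.8, 82.4 and 49.4 FPKM in PTH 1 to 4. No PTH library came near the PBS libraries, and the log2 change was 2.86 (SE 0.39, limma adjusted p = 0.00304), or 2.25 at a common median (limma adjusted p = 0.0128). Aldh4a1 and Gatm, of proline breakdown and creatine synthesis, had log2 changes of -0.95 and -0.82 and Srm, spermidine synthase, one of 0.999, none of which passed (limma adjusted p = 0.07, 0.0784 and 0.0826). The number of falls was 2 without PTH 1 and 1 without PBS 3, and the number of rises was 2 without PTH 1 or PBS 1. At a common median 3 fell, against a background of 4.77%.

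Of 17 genes for transport of ammonium, bicarbonate supply and amino acid uptake, 11 were tested. By limma 1 rose and 0 fell (1 and 3 at an unadjusted p under 0.05), against 22.8% and 2.37% by limma over all tested genes. Slc38a7, a glutamine transporter of lysosomes, rose from 1.74 ± 0.946 to 5.65 ± 1.72 FPKM, a log2 change of 1.504 (SE 0.39), but not at a common median (limma adjusted p = 0.121) or without PBS 2, PTH 2 or PTH 3. Slc38a3, which encodes a glutamine transporter of hepatocytes, had 204, 186 and 102 FPKM in PBS 1 to 3 and 116, 69.0, 90.3 and 69.7 FPKM in PTH 1 to 4. Its log2 change of -0.89 missed the threshold as deposited (limma adjusted p = 0.0592) and passed at a common median, where it was -1.52 (limma adjusted p = 0.013). Car5a, the mitochondrial carbonic anhydrase that supplies bicarbonate to CPS1 and whose table locus is shared with other genes, and Slc1a4, a neutral amino acid transporter, had log2 changes of -1.60 and -1.17 and did not pass as deposited (limma adjusted p = 0.11 and 0.0795). At a common median, where 4.77% of all tested genes fell, 2 transport genes did so, Slc38a3 and Slc1a4, the latter with a change of -1.71 (limma adjusted p = 0.0432). Falls numbered 1 without PBS 3 and 2 without PTH 1.

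Of 20 known or proposed regulators of these genes, 3 rose and 0 fell by limma (4 and 2 at an unadjusted p under 0.05). The background of all tested genes was 22.8% higher and 2.37% lower. At a common median none of the 3 passed and 1, Foxo1, fell, against a background of 2.97% higher and 4.77% lower. Nr3c1, the glucocorticoid receptor, rose from 12.3 ± 3.59 to 25.6 ± 1.69 FPKM, a log2 change of 1.07 (SE 0.27). Creb1, a cyclic AMP-responsive factor, had a log2 change of 1.31 (SE 0.31), and Foxa2 one of 1.53 (SE 0.43), while Foxa1 missed the threshold with 0.99 (limma adjusted p = 0.065). None of these was called without PBS 3 or without PTH 2, Foxa2 was also not called without PBS 2 or PTH 4, and without PTH 1 there was 1 fall. Among the 21 TCA enzymes, 4 rose and 0 fell by limma (7 and 0 at an unadjusted p under 0.05). This share of rises was no higher than the background of 22.8%. The 4 that rose were Cs, Idh3a, Idh3b and Idh3g with log2 changes of 1.38, 1.54, 0.89 and 0.98, and 0 rose at a common median. The number of rises among TCA enzymes was 1 without PBS 3, 2 without PBS 1, PTH 2 or PTH 3, and 7 without PTH 4. The median log2 changes were 0.10 for the glutamine group, 0.30 for the arginine group, -0.21 for transport, -0.09 for the regulators and 0.43 for the TCA enzymes, beside 0.55 for all tested genes.

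**Figure D5:**
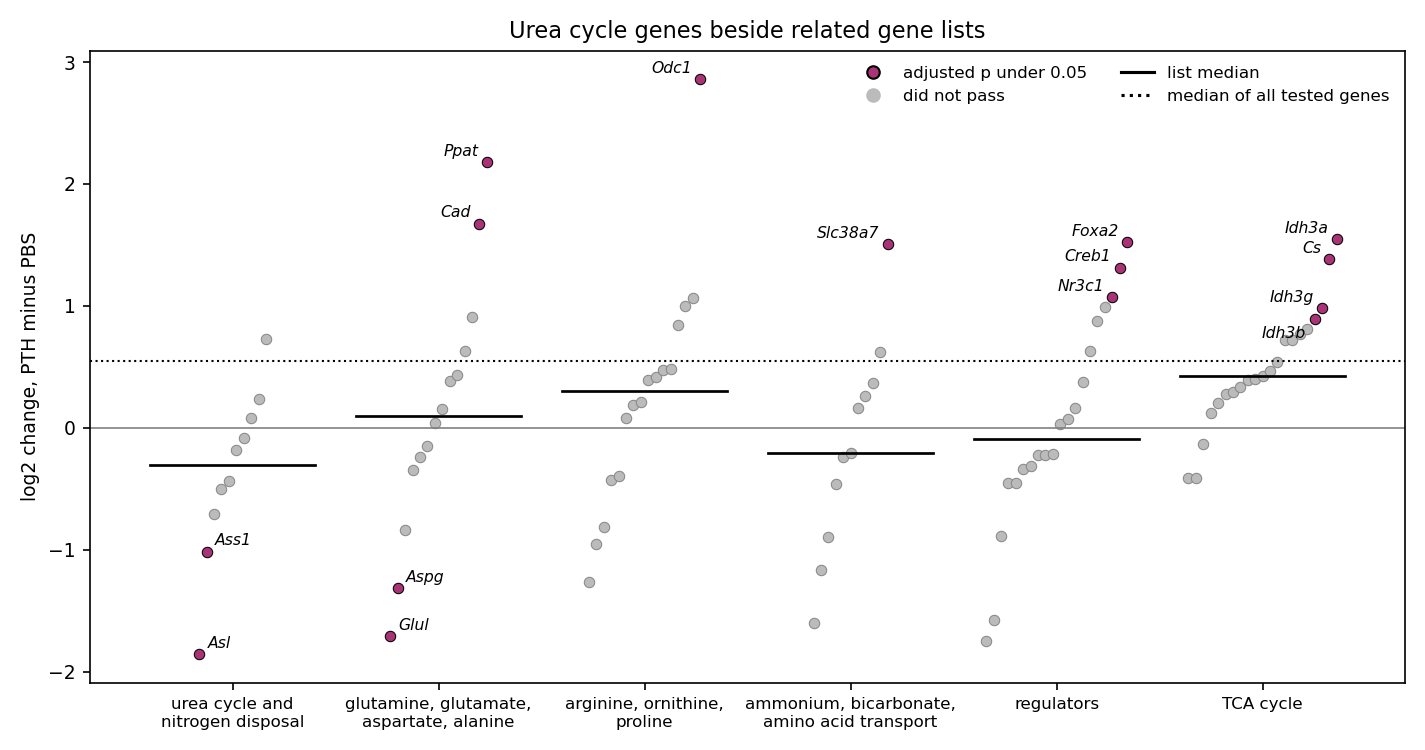
Log2 change, PTH minus PBS, of each tested gene in the 10 urea cycle and nitrogen disposal genes and in 5 related lists, with genes past an adjusted p of 0.05 coloured and named, the list median as a line and the median of all tested genes (0.55) dotted. The list medians run from -0.31 to 0.43, all below the dotted line.

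The 250 bases before the RefSeq start of Ass1, Nags and Glud1 are shown with sequence motifs in capitals (RefSeq, build GRCm38.p6, gene strand, 5′ to 3′). Ass1 fell, and Nags varied most over the PTH libraries. Glud1 was higher in every PTH library as deposited, as were 32.9% of all tested genes. It did not pass the test, and its groups overlapped at a common median. The RefSeq table gave 7 windows for 6 of the 10 genes (Ass1, Slc25a15 with 2 starts, Got2, Nags, Glud1 and Otc).
Ass1, chr2:31470020-31470269, plus strand: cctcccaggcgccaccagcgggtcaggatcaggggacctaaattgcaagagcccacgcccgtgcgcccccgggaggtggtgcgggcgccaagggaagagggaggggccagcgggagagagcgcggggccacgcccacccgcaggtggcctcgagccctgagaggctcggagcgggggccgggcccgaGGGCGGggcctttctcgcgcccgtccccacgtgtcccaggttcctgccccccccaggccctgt
Nags, chr11:102145263-102145512, plus strand: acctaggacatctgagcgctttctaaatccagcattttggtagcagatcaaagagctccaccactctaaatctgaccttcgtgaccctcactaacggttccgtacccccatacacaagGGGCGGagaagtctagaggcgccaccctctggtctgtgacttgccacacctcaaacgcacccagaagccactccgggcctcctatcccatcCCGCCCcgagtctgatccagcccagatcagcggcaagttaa
Glud1, chr14:34310477-34310726, plus strand: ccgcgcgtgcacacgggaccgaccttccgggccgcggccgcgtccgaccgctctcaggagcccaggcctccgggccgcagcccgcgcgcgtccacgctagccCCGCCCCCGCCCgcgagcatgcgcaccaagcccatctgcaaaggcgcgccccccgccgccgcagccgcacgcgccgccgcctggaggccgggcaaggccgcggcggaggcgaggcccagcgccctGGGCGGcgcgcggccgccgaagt

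The RefSeq start of Ass1 lies downstream of the M21 start given above, 31470207, so the end of its window, from its GC box on, is inside the M21 gene. The capitals in these windows mark GC boxes (GGGCGG, either strand), of which Ass1 has 1, Nags 2 and Glud1 3, and 32.7% of 32851 windows of the same length hold at least 1. The GC content was 75.6% for Ass1, 55.6% for Nags and 82.0% for Glud1, against 43.6% for Otc and a median of 52.4% over all windows. The cyclic AMP response element TGACGTCA (in 1.55% of windows), the letters TGACG (17.8%), which begin the full element, the C/EBP letters TTGCNNAA (9.56%), the HNF4 letters CAAAGTCCA (0.384%) and the CCAAT box (33.8%) had no match in the windows of these 6 genes on either strand. A TATAAA match (12.4% of windows) was found in the window of Got2 alone among the 6, in a part of the window that is inside the M21 gene. The Slc25a15 window from 22398278 to 22398527 is wholly inside its M21 gene. The letters say nothing of whether a factor binds there.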

How the data were processed

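Liver RNA was sequenced in 3 PBS and 4 PTH libraries, grouped by the treatment label. The authors deposited FPKM per gene and library, per the file headers. Columns headed as counts hold a scaled signal deposited by the authors: 91.4% to 94.2% of values above 0.5 of a step lie within 0.05 of a whole number of steps, with a step for each library, so no count test was run, and totals divided by the step gave the estimated reads. Bowtie 0.12.2 and mm8 are named in the submitters' processing notes, but most deposited loci lie close to GRCm38 positions. For Cps1, for example, the deposited locus runs from 67123025 to 67231261, beside 67123026 to 67231259 in M21. The sources used here name no quantifier. Of the genes whose identifiers are in GENCODE M21 (97.0%), 70.7% have both ends within 5000 bases of the M21 gene, and coordinates are those of M21 (GRCm38).

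The filter kept genes that reached 0.5 FPKM in 3 or more libraries. Their log2(FPKM + 0.5) was fitted in limma (version 3.58.1, R version 4.3.3; robust eBayes with a trend), with p adjusted by Benjamini-Hochberg over all genes tested, with a two-sided threshold of 0.05. Changes of genes with low FPKM come out too small on this scale. The fit was run on simulated data as a check of the code. These data held independent noise for each gene and no shift of a whole library, so they cannot show how the fit handles such a shift. Python 3.11.15 ran the exact permutation tests (SciPy 1.17.1) and drew the figures (matplotlib 3.10.9). The 10 genes and the gene lists were chosen with earlier results of these data known. The text names all 10 genes, Glul, the 4 smallest p in each related list and the 5 genes closest in profile; genes named beyond these were picked after their values were seen, and the GC box and HNF4 letters were added after the other motifs.

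Alternatives were each library left out, the replicate number as a block, common-median and quantile scaling, array weights, limma without its trend and robust options, a filter at 1 FPKM or none, a pseudocount of 0.1 or 1, the scaled signal with a pseudocount and minimum of 5, summed lines per symbol and an adjusted p of 0.1. Scaling to a common total FPKM, and leaving out each library at a common median, were added after seeing the data.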

Additional observations from a re-analysis of the deposited data

Results flagged for a closer look

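In 1 of 49 gene and ratio groups checked, 1 PTH library lay far from the others. Cad had 14.3 FPKM in PTH 1 and 9.70, 9.59 and 10.2 FPKM in PTH 2 to 4, so that the gap to the nearest library took 0.876 of the range, above Dixon's 95% critical value for 4 libraries. Chance alone gives such a flag in about 1 of 20 groups. Groups of 3 PBS libraries were not checked.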

How the results depend on the processing

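Among the 10 genes the number that fell was 1 with no filter, 1 with limma without trend and robust, and from 1 to 2 with 1 library left out, the gene lost being Ass1. At a common median it ran from 2 to 6 with 1 library left out, with 6 without PTH 1 (Cps1, Otc, Nags and Gls2 besides Ass1 and Asl). The number that rose was 1 at a common total FPKM, 1 at an adjusted p of 0.1, and from 0 to 1 with 1 library left out, Glud1 in each case. The median log2 change of the 10 genes was -0.93 at a common median, from -0.51 to 0.0073 with 1 library left out as deposited, and from -1.11 to -0.68 at a common median. The sign of Slc25a15 was reversed at a common median (-0.38) and with quantile scaling (-0.21), and that of Got2 at a common median (-0.54), with quantile scaling (-0.35) and with array weights (-0.02257). With 1 library left out, the change of Cps1 ran from -0.26 to 0.22, of Arg1 from -0.93 to 0.055, of Slc25a15 from -0.012 to 0.69, of Glud1 from 0.57 to 0.90 and of Got2 from -0.23 to 0.26. At a common median these leave-out ranges were -0.87 to -0.51 for Cps1, -1.54 to -0.63 for Arg1, -0.61 to 0.0034 for Slc25a15, -0.77 to -0.37 for Got2 and -0.0015 to 0.22 for Glud1. The PTH minus PBS difference in the log2 ratio of Cps1 to Otc ran from -0.18 to 0.33 with 1 library left out and that in the log2 ratio of Slc25a15 to TCA enzymes from -0.46 to 0.045. The cause of these shifts was not tested.

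Correlations of deviations from the group means were -0.03, -0.16 and 0.0093 for libraries of the same replicate number, 1 to 3. Between libraries of unlike number they ran from -0.20 to 0.22. No pairing by number was seen, but so few libraries cannot exclude one. With the replicate block on these 3 numbers, which drops PTH 4, 1 of the 10 genes fell (Asl), and Cps1 and Arg1 changed sign to 0.063 and 0.055.

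Over all 11839 tested genes, calls numbered 2986 as deposited and 917 at a common median. Depth limits Nags most, with 18 to 274 estimated reads.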

Other observations

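Some markers of each hepatocyte zone fell. Over all tested genes 2.37% fell and 22.8% rose as deposited, and 4.77% fell and 2.97% rose at a common median. Of 9 periportal genes besides the 10 described above, 6 fell and 1, Hsd17b13, rose as deposited and 6 fell at a common median, among them Sds, serine dehydratase, from 236 ± 118 (SD, n = 3) to 25.5 ± 15.1 FPKM (SD, n = 4), and G6pc, glucose-6-phosphatase, from 52.4 ± 22.5 to 7.34 ± 6.84 FPKM. The other 4 that fell were Pck1, Hal, Ctsc and Aldh1b1, and the falls numbered 2 without PTH 2 (Sds and G6pc), 3 without PBS 2 and 4 without PBS 1, PBS 3 or PTH 4. Hsd17b13 did not pass at a common median (limma adjusted p = 0.256) or without PBS 2, PBS 3, PTH 2 or PTH 3. Sds shares its table locus with Plbd2. Of 12 tested pericentral genes 5 fell and 0 rose by limma (5 and 0 at an unadjusted p under 0.05), among them Cyp2e1, a cytochrome P450, from 357 ± 30.3 to 128 ± 46.4 FPKM, and Rgn, regucalcin, from 141 ± 39.2 to 55.4 ± 25.4 FPKM. The falls numbered 2 without PBS 1 or PBS 2 (Cyp2e1 and Glul) and 3 without PTH 2. The genes named here were chosen after their values were seen.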
